A study of Mus musculus with 206 samples.

Results

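Hypothalamic H3K27ac was compared between adult mice given morphine (MOR-SAL) or saline (SAL-SAL) around birth, with no immune challenge in adulthood. The rule took every peak list labelled hypothalamus and MOR-SAL or SAL-SAL, which gave 20 of the 174 peak lists of the series, 12 from MOR-SAL and 8 from SAL-SAL animals, scored over the 13788 regions of the consensus set for the hypothalamus. All animals were C57BL/6NTac mice. MOR-SAL dams carried a minipump delivering morphine at 10 mg/kg per day during gestation, and their pups, raised by drug-naive surrogate mothers, were injected subcutaneously 2 times per day with 10 mg/kg on postnatal days 1 to 14. SAL-SAL animals received saline at the same steps. Both groups were injected with saline as adults, and tissue was taken 2 h later, so an injection shortly before death was common to all 20 animals. Of the MOR-SAL libraries 4 were female and 8 male, and of the SAL-SAL libraries 6 were female and 2 male. Each library was made from 1 animal, from about 10000 nuclei sorted for NeuN, a protein of neuronal nuclei, and the tissue was a pair of adjacent punches, so neurons of neighbouring nuclei could be included.

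Acetylation of lysine 27 of histone H3 (H3K27ac) marks promoters and enhancers in active use. Acetyltransferases such as CREBBP and EP300 place it, and histone deacetylases remove it. Morphine acts on the mu opioid receptor, an inhibitory G protein-coupled receptor that is found on many hypothalamic neurons, and the hypothalamus governs feeding, body temperature, the stress axis and the response to inflammation. Its neurons are known by neuropeptides such as POMC, AGRP, orexin and oxytocin. The comparison asks which promoters and enhancers of these neurons carried more or less of the mark in adulthood after morphine early in life.

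The groups did not differ detectably in the size of their peak lists. MOR-SAL libraries held 52875 ± 22872 peaks (SD, n = 12; lowest 24505, median 55658, highest 88357) and SAL-SAL libraries 52154 ± 21879 (SD, n = 8; lowest 20170, median 49204, highest 77719). A peak overlapped 74.2% ± 16.5 of the consensus regions in MOR-SAL and 66.5% ± 17.5 in SAL-SAL libraries, and the libraries with the lowest shares were MOR-SAL female 15-4 (35.2%) and SAL-SAL female 10-3 (32.3%). None of the 15 library measures tested differed between the groups in an exact permutation test within sex, two-sided over 9450 arrangements, and every adjusted p was 1. The peak names carry a sequencing lane in some lists: 6 MOR-SAL and 7 SAL-SAL lists name lane 7, 3 and 1 name lane 4, and 3 and 0 name none. The number before the hyphen in an animal's identifier took 8 values in MOR-SAL and 5 in SAL-SAL with none in common, and the labels do not say what it stands for.

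Markers of neurons were present and markers of the hypothalamus were nearly absent. A marker was counted when 1 of the 10000 peaks of highest −log10 p of a library lay within 1 kb of a transcription start site (TSS) of the gene. The neuron list of 16 genes reached 42.2% ± 15.1 in MOR-SAL and 35.9% ± 12.8 in SAL-SAL libraries. Within sex the means were 25.0% and 33.3% in females and 50.8% and 43.8% in males, and the difference adjusted for sex was −1.82 percentage points (exact permutation test, p = 0.784, adjusted p = 1). Map2, a microtubule protein of dendrites, was marked in 12 of 12 MOR-SAL and 4 of 8 SAL-SAL libraries, and Rbfox3, the gene of NeuN, in 6 and 5. Of 18 hypothalamus markers 16 were marked in no library, Pomc, Agrp, Sim1 and Oxt included. Six3 was marked in 1 and Hcrt, the orexin gene, in 2 MOR-SAL libraries, and the list averaged 1.39% ± 2.51 and 0%. With every peak of a list counted, the hypothalamus markers reached 5.56% ± 5.30 in MOR-SAL and 2.08% ± 2.88 in SAL-SAL, against 72.4% ± 20.7 and 57.0% ± 17.5 for the neuron markers. Thalamus markers were marked at 12.5% ± 13.3 and 18.8% ± 12.6. Their means were 5.36% and 21.4% in females and 16.1% and 10.7% in males. The difference adjusted for sex was −6.25 percentage points (exact permutation test, p = 0.289, and p = 0.1 in females alone). Over all 20 libraries the thalamus list reached 15.0% ± 13.1, against 4.202% ± 7.60 in 17 baseline libraries of the prefrontal cortex (PFC), 1.62% ± 4.37 in 22 of the hippocampus and 5.88% ± 8.47 in 17 of the striatum. Slc17a6, marked in 13 of the 20 libraries, is on both the thalamus and the neuron list. The hypothalamus list reached 0.833% ± 2.04 in these 20 libraries, against 4.90% ± 13.3 in PFC, 1.26% ± 2.38 in the hippocampus and 1.63% ± 2.61 in the striatum. The 10 endothelial and 14 microglia markers were at 0 in every library. Oligodendrocyte markers averaged 4.17% ± 5.55 in MOR-SAL and 9.38% ± 16.4 in SAL-SAL, where 2 female libraries, 9-4 (43.8%) and 4-1 (25.0%), held most of them, and 1 MOR-SAL female library, 18-0, reached 18.8%. Astrocyte markers averaged 4.17% in both groups, markers of the cortex and hippocampus 5.13% ± 5.99 and 9.62% ± 7.96, markers of the striatum 11.8% ± 7.503 and 10.4% ± 7.39, and the lists for oligodendrocyte precursors and for tanycytes and ependymal cells 0% and 3.13% ± 5.79 each.

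**Figure D1:**
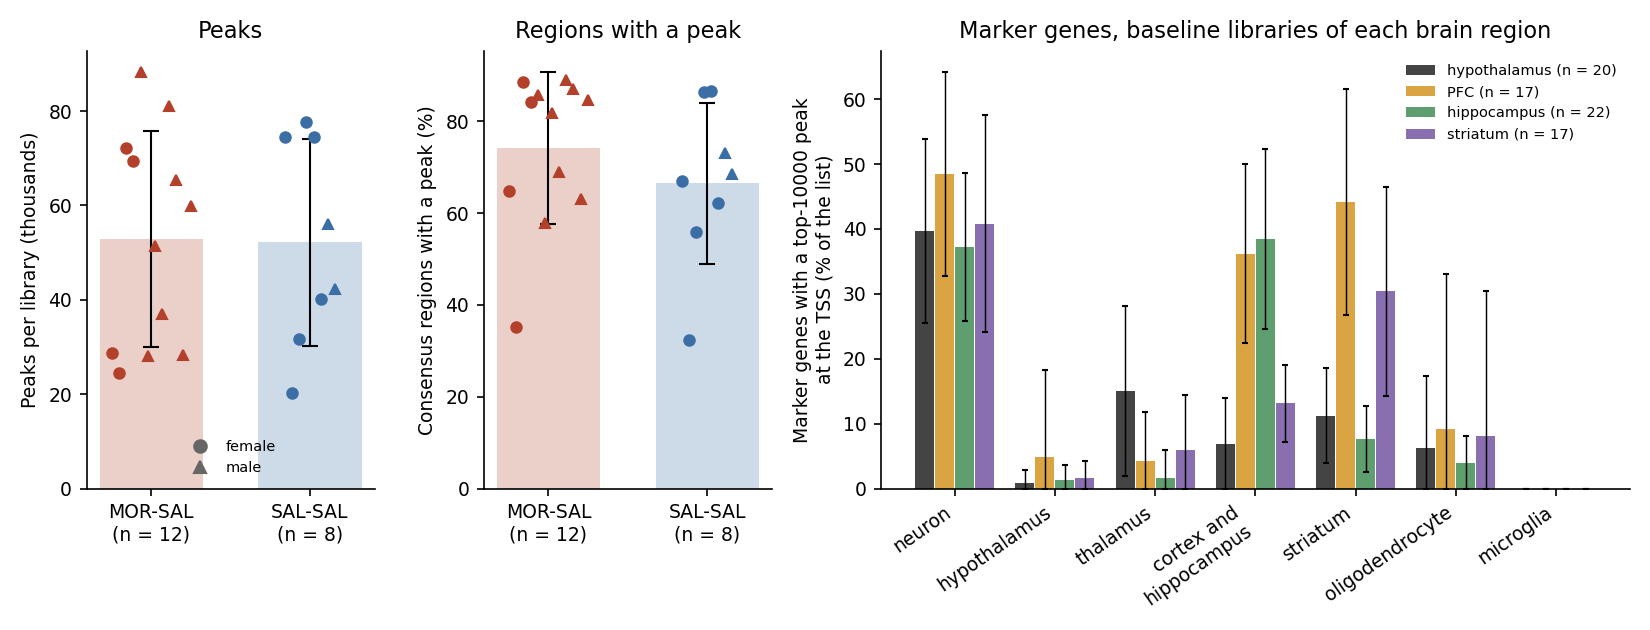
The left panel plots the number of peaks per library in units of 1000 and the middle panel the percentage of the 13788 consensus regions with a peak, each point being 1 library (circles female, triangles male) and each bar the group mean with its SD. The right panel plots the mean percentage of each marker list, with its SD, that had a top-10000 peak at the TSS in the baseline libraries of 4 brain regions, where the hypothalamus libraries had 0.833% of the hypothalamus and 15.0% of the thalamus markers.

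A region's level was its rank. In each library a region was given the −log10 p of its strongest overlapping peak and ranked from 0 to 100 among all regions of that library, so that a rank of 80 lies above 80% of the regions. Regions without a peak shared 1 tied rank, which ranged from 5.55 to 33.8 over the 20 libraries, and averaged 12.9 ± 8.27 in MOR-SAL and 16.8 ± 8.76 in SAL-SAL. Differences are MOR-SAL minus SAL-SAL in percentile points, adjusted for sex, with the standard error (SE) of the limma fit. In bulk nuclei, fewer cells of a type and less of the mark per cell cannot be told apart.

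No region passed the test at baseline. At an adjusted p under 0.05, 0 of 13788 regions were called (0%), and the smallest adjusted p was 0.0836. At an unadjusted p under 0.05 there were 1109 regions (8.04%), of which 538 ranked higher in MOR-SAL (3.90%) and 571 lower (4.14%). In lists of equal length, where each library was reduced to its 20170 strongest peaks, 6 regions were called (0.0435%) and 1080 had an unadjusted p under 0.05 (7.83%). Of the 6, 2 rose (0.0145%), the promoter of Jdp2 and an intronic region of Ascc1, and 4 fell (0.0290%), the promoter of 4931414P19Rik, intronic regions of Grm7 and Fhit, and a region near Gm10604. These 6 calls depended on the libraries: 0 regions were called with the lists of lane 7 alone or in females alone, 9 in males alone (only Grm7 of the 6 among them), 9 with the marker shares of the libraries as terms (all 6 among them), and between 0 and 9 when 1 library was left out. The marker shares used as terms were those of neurons, astrocytes and oligodendrocytes. The occupancy measure, which asks only whether one of the 10000 strongest peaks of a library overlaps a region, called 0 of 8791 regions by an exact conditional test within strata of sex, with 308 (3.50%) at an unadjusted p under 0.05, of which 225 (2.56%) were occupied more often in MOR-SAL and 83 (0.944%) less often. This test has at most 9450 arrangements of the groups within sex, so its p-values are coarse. A single region, even if fully separated, could not pass after adjustment over 8791 regions. The 0 calls therefore do not show equal occupancy, and the coarse p-values also lower the share under 0.05. The ranks of the groups did not overlap at 1 region (0.00725%), the promoter of Pak6 (MOR-SAL higher), and at 0 (0%) with MOR-SAL lower.

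**Figure D2:**
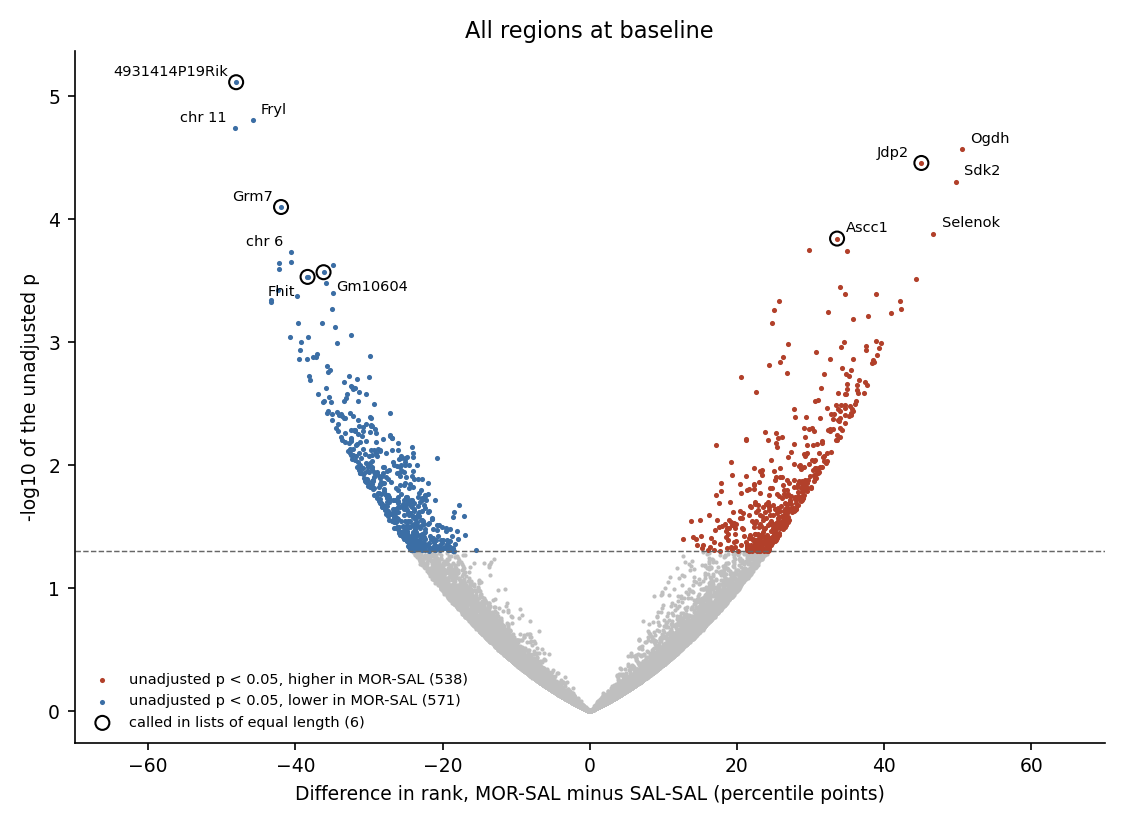
Each point is 1 of the 13788 regions, with the difference in rank (MOR-SAL minus SAL-SAL, percentile points) on the horizontal and −log10 of the unadjusted limma p on the vertical axis. The 538 regions above the dashed line (p = 0.05) on the right ranked higher and the 571 on the left lower in MOR-SAL, and circles mark the 6 regions called in lists of equal length.

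The regions that ranked highest in MOR-SAL relative to SAL-SAL included the promoters of a mitochondrial enzyme and of a transcription factor. Ogdh is a component of the oxoglutarate dehydrogenase complex in the tricarboxylic acid cycle. At its promoter (chr11:6290821-6293554, summit in an intron), the rank was 32.4 at the lowest, 73.5 at the median and 96.0 at the highest in MOR-SAL libraries and 6.71, 17.7 and 51.7 in SAL-SAL. Only MOR-SAL female 15-4, which had no peak there, lay within the range of the SAL-SAL libraries, of which 2 of 8 had a peak. Group means were 74.2 ± 17.9 and 22.0 ± 14.2, and the difference was 50.6 ± 12.0 (adjusted p = 0.0931). One of the 10000 strongest peaks lay at Ogdh in 10 of 12 MOR-SAL and 0 of 8 SAL-SAL libraries.

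Jdp2 encodes a basic leucine zipper repressor that pairs with JUN proteins at AP-1 sites. Its promoter (chr12:85597383-85599389, summit upstream of the gene) had ranks of 72.4, 87.2 and 99.5 in MOR-SAL (lowest, median, highest) and 15.7, 49.6 and 79.7 in SAL-SAL. All 12 MOR-SAL and 5 of 8 SAL-SAL libraries had a peak, and 7 of 8 SAL-SAL libraries ranked below every MOR-SAL library. The difference was 45.1 ± 10.8 in full lists (adjusted p = 0.0962) and 48.8 ± 11.5 in lists of equal length, where it passed (adjusted p = 0.0481). Leaving out 1 library at a time in lists of equal length, the difference stayed between 46.7 and 53.4, and the region was called in 2 of 20 such fits, with adjusted p from 0.0428 to 0.132.

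The intronic region of Sdk2, an adhesion protein of the immunoglobulin family that acts in synaptic specificity (chr11:113969412-113973698, 92520 bp from the TSS), ranked at 34.0, 80.8 and 98.3 in MOR-SAL and 13.5, 27.98 and 59.2 in SAL-SAL. It held a peak in 12 of 12 and 3 of 8 libraries, and MOR-SAL male 13-1, at 34.0, alone of its group reached into the SAL-SAL range. The difference was 49.8 ± 12.2 (adjusted p = 0.114 in full lists, 0.205 in lists of equal length). The promoter of Selenok, a selenoprotein of the endoplasmic reticulum (chr14:29967537-29969744), had a peak in 9 of 12 MOR-SAL and 1 of 8 SAL-SAL libraries. Its ranks were 15.5, 74.2 and 93.3 against 6.79, 17.7 and 36.9, with a difference of 46.7 ± 12.2 (adjusted p = 0.209), and 4 MOR-SAL libraries lay among the SAL-SAL values.

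The region called in an intron of Ascc1, a gene of the activating signal cointegrator complex (chr10:60077735-60083780), has its nearest TSS 22439 bp away at Spock2, a proteoglycan gene. It ranked at 60.3, 89.1 and 99.996 in MOR-SAL and 23.2, 52.8 and 98.5 in SAL-SAL. The strongest 10000 peaks included it in 12 of 12 and 1 of 8 libraries. The difference was 33.6 ± 8.80 in full lists (adjusted p = 0.209) and 41.5 ± 9.65 in lists of equal length (adjusted p = 0.0481; 0.0145 to 0.150 with 1 library left out, called in 4 of 20 fits). At the promoter of Pak6, a p21-activated kinase gene expressed in neurons (chr2:118661891-118664990, summit in an exon), the lowest MOR-SAL rank, 54.3, lay above the highest SAL-SAL rank, 52.5. The medians were 67.2 and 27.98, and the difference of 36.2 ± 12.1 did not pass (adjusted p = 0.347). It was named for that separation after the values were seen.

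The 300 bases of the plus strand around the median summit of these regions (GRCm38.p6, the assembly mm10) are shown because they hold the centre of the acetylated stretch. Capitals mark matches on either strand to an AP-1 site (TGANTCA), a cAMP response element (TGACGTCA), an E-box (CAGCTG) or a GC box (GGGCGG).
Ogdh promoter, chr11:6292243-6292542: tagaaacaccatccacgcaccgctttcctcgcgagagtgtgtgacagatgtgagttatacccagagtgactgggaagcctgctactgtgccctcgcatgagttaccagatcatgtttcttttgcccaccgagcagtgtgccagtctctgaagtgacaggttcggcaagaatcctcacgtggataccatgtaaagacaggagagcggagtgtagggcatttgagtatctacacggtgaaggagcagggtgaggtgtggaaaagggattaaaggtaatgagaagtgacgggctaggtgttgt
Jdp2 promoter, chr12:85598268-85598567: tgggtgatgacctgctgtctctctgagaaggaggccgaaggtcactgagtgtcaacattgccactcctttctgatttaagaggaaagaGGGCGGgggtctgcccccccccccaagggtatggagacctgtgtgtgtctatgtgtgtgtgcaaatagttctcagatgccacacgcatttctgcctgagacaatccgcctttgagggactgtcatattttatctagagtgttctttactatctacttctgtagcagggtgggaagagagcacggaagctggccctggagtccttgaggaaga
Sdk2 intron, chr11:113972133-113972432: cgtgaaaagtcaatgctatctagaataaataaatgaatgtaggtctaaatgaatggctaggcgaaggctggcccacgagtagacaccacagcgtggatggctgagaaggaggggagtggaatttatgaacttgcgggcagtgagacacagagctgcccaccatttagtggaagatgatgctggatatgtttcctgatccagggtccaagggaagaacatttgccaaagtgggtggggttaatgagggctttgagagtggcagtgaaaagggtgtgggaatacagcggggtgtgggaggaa
Ascc1 intron, chr10:60081655-60081954: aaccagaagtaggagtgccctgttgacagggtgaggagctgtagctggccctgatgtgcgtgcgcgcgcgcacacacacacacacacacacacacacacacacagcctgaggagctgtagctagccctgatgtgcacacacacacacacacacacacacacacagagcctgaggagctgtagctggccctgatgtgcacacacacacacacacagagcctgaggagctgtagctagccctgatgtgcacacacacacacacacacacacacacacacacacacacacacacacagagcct
Only the Jdp2 window held a match, 1 GC box, and 25.3% of all 4300 promoter windows of this length hold one. The Ogdh window held 11 CpG dinucleotides and that of Jdp2 5, beside a median of 10 over all promoters, and the Ascc1 window is largely a tandem CA repeat, where short reads are hard to place.

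Among the regions that ranked lower in MOR-SAL, the smallest p belonged to the promoter of 4931414P19Rik, a gene without an established function (chr14:54604698-54607638, summit in an exon). Its ranks were 7.87, 20.95 and 60.2 in MOR-SAL and 23.1, 73.9 and 86.3 in SAL-SAL. SAL-SAL female 9-0, at 23.1, was the one SAL-SAL library inside the MOR-SAL range, and all 8 SAL-SAL but 7 of 12 MOR-SAL libraries had a peak. The difference was −48.1 ± 10.7 (adjusted p = 0.0836), and −44.0 ± 9.60 in lists of equal length, where the region fell (adjusted p = 0.0375; 0.00722 to 0.125 with 1 library left out, called in 11 of 20 fits).

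Fryl, a homolog of the Drosophila furry gene of cell shape, had an intronic region (chr5:73204711-73208405, 48214 bp from the TSS) that ranked at 5.55, 16.5 and 51.1 in MOR-SAL and 30.03, 71.4 and 97.3 in SAL-SAL. A peak was present in 3 of 12 and 8 of 8 libraries. The difference was −45.8 ± 10.5 in full lists (adjusted p = 0.0836) and −36.5 ± 9.87 in lists of equal length (adjusted p = 0.181). An intergenic region of chromosome 11 with no protein-coding TSS within 100 kb (chr11:57411653-57417297) ranked at 5.73, 19.7 and 52.8 against 22.1, 75.6 and 96.7. Its difference was −48.2 ± 11.2 (adjusted p = 0.0836).

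Intronic regions made up much of the rest. Grm7 encodes the presynaptic metabotropic glutamate receptor mGluR7, and its region (chr6:111502433-111505658) lies more than 100 kb from any protein-coding TSS. It was among the 10000 strongest peaks in 1 of 12 MOR-SAL and 6 of 8 SAL-SAL libraries, with ranks of 5.55, 25.1 and 76.1 against 18.9, 82.2 and 88.2. SAL-SAL libraries were split, with 6 above 80 and the other 2, which lacked a peak, near 20. The difference was −42.0 ± 10.6 in full lists (adjusted p = 0.157), and in lists of equal length the region fell by 41.4 ± 9.59 (adjusted p = 0.0481; 0.00722 to 0.132 with 1 library left out).

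Fhit, a hydrolase of diadenosine nucleotides that spans a common fragile site, held a pair of neighbouring intronic regions that both ranked lower. The first (chr14:9639915-9643118) had ranks of 7.71, 26.7 and 85.9 in MOR-SAL and 33.8, 83.6 and 96.7 in SAL-SAL (difference −42.2 ± 11.4, adjusted p = 0.209). The second (chr14:9643788-9648188) had 5.73, 23.8 and 81.4 against 18.9, 75.8 and 91.8 (difference −38.3 ± 10.5, adjusted p = 0.209), and it fell in lists of equal length (adjusted p = 0.0481; 0.0124 to 0.199 with 1 library left out). The intergenic region 25561 bp from Gm10604 (chr4:12006826-12011174) had 5.55, 20.7 and 55.2 against 18.9, 69.8 and 93.7. It fell by 37.1 ± 8.15 in lists of equal length (adjusted p = 0.0375; 0.00722 to 0.132 with 1 library left out) and stood at −36.2 ± 9.89 in full lists (adjusted p = 0.209).

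**Figure D3:**
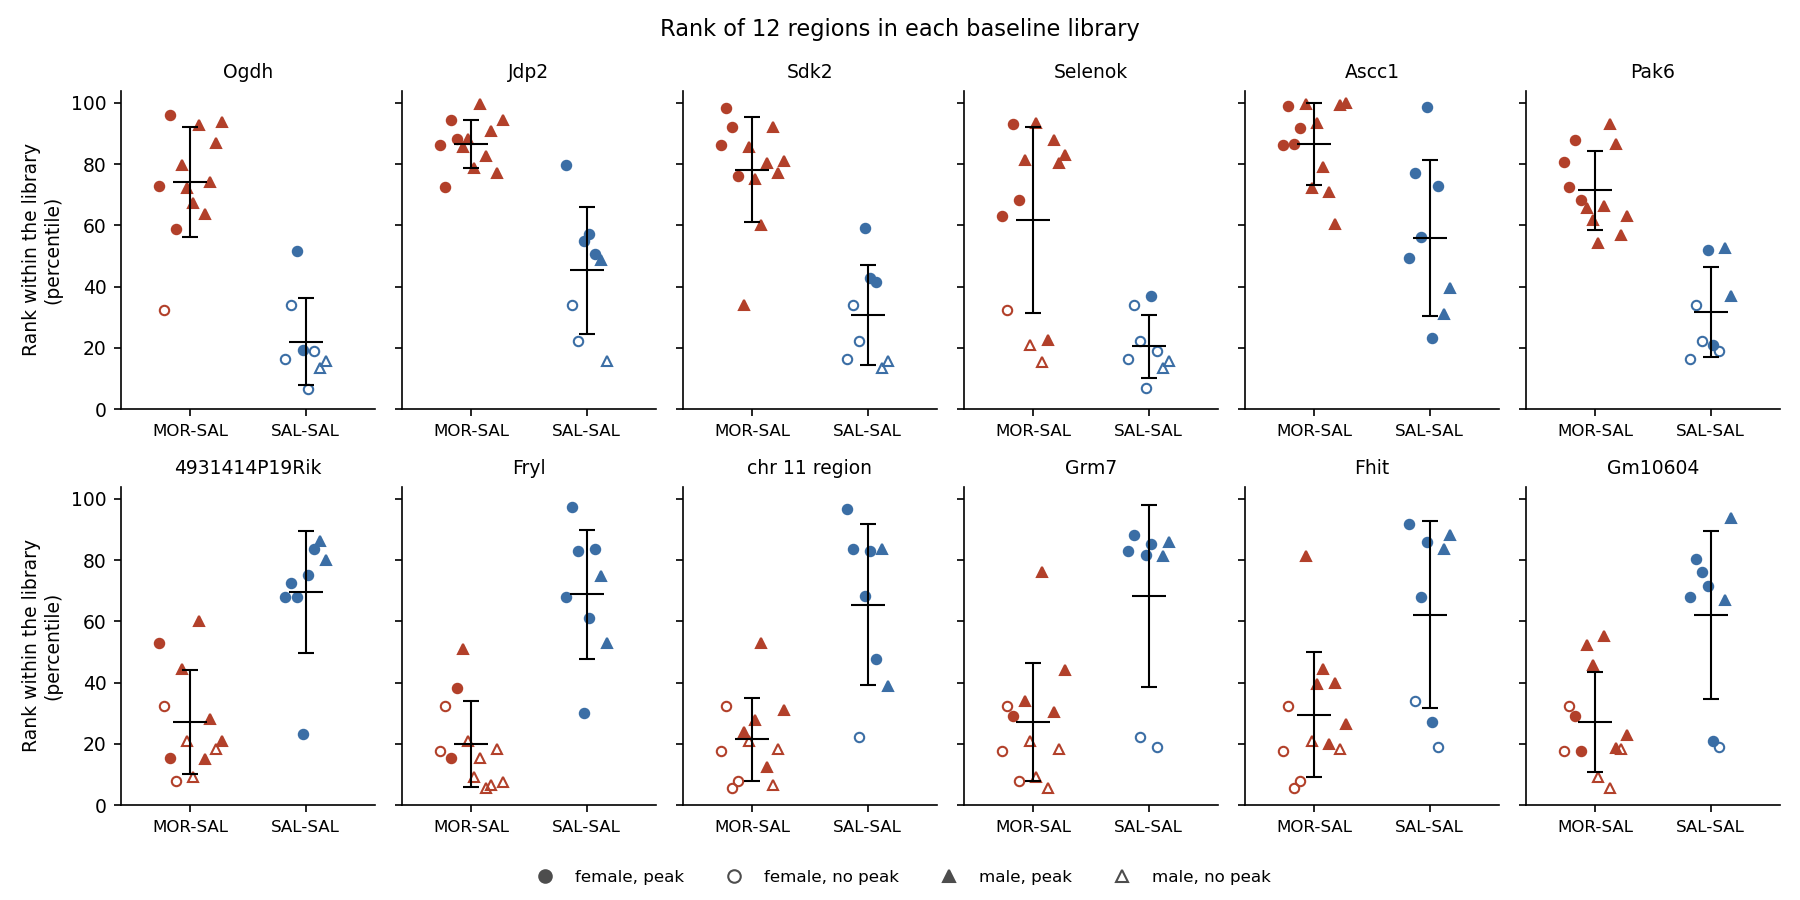
Each panel plots the rank (percentile within the library) of 1 region in the 12 MOR-SAL and 8 SAL-SAL libraries, circles for females and triangles for males, open where the library had no peak in the region, with the group mean and SD in black. The upper row holds regions higher and the lower row regions lower in MOR-SAL, and the groups are fully apart only at Pak6, with 54.3 as the lowest MOR-SAL and 52.5 as the highest SAL-SAL rank.

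The windows of the lower regions, drawn from the same assembly and strand with the same capitals, are shown for comparison with those of the higher regions.
Fryl intron, chr5:73205981-73206280: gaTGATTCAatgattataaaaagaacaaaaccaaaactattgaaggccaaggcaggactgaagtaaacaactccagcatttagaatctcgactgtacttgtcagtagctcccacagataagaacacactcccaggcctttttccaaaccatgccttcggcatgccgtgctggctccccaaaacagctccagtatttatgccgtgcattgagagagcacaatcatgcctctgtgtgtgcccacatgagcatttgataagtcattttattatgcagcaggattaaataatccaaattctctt
Intergenic, chromosome 11, chr11:57414975-57415274: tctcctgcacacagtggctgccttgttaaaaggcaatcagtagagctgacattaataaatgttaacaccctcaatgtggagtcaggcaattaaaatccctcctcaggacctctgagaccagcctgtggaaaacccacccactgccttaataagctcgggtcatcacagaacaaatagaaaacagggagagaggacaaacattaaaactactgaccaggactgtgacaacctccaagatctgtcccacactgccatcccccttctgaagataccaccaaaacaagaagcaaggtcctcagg
Grm7 intron, chr6:111503543-111503842: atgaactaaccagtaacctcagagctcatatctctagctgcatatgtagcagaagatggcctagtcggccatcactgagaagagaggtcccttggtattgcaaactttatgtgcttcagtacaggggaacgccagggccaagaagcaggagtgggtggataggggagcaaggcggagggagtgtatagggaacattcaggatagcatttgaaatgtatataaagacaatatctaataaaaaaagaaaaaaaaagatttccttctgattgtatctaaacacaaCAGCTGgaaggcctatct
Fhit intron, chr14:9646228-9646527: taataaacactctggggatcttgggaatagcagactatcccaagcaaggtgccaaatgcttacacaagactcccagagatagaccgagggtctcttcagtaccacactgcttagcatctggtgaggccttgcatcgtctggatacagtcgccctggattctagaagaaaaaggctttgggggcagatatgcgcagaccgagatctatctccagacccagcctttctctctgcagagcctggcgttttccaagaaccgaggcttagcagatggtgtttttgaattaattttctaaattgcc
Near Gm10604, chr4:12009323-12009622: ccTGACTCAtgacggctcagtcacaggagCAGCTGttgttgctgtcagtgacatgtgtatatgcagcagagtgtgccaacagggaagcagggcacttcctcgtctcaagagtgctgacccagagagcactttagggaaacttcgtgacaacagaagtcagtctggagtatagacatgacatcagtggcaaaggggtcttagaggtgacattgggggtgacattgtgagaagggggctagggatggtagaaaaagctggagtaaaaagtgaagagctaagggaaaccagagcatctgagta
The Fryl window held 1 AP-1 match and that of Gm10604 held an AP-1 match and an E-box, and AP-1 matches occur in 9.41% of the windows of all regions. Grm7 had 1 E-box, which 20.8% of all windows hold, and the windows of the chromosome 11 region and of Fhit held none of the 4 motifs. The 4931414P19Rik window, with a GC content of 65.7% and 6 GC boxes, is not printed. The printed windows had 1 to 7 CpG dinucleotides, beside a median of 4 over all regions away from promoters, and the 4931414P19Rik promoter window had 34, beside a median of 10 over all promoters.

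The 10 regions of smallest p in each direction were named by rule, and the 9 of these 20 not yet described each had an adjusted p of 0.209. Those higher in MOR-SAL lay near Atp5o, a subunit of the mitochondrial ATP synthase (29.8 ± 7.91), at the promoter of Rusc2 (34.9 ± 9.28), in introns of Best1 (44.3 ± 12.2) and Unc5a, a netrin receptor (34.7 ± 9.77), and near Slc16a9, a carnitine transporter (34.1 ± 9.50). Unc5a had no peak in any of the 8 SAL-SAL and a peak in 10 of 12 MOR-SAL libraries. Those lower lay in an intergenic stretch of chromosome 6 (chr6:18710146-18713305, −40.6 ± 10.8) and in introns of Xrra1 (−40.6 ± 11.0), Ywhah, a 14-3-3 protein (−34.9 ± 9.45), and Rtn4rl1, a Nogo receptor homolog (−42.3 ± 11.5). Over all regions, promoters made up 31.2%. Of the regions at an unadjusted p under 0.05, 35.1% of the higher and 20.7% of the lower ones lay at promoters, and 45.7% and 71.3% had their summit in an intron, against 61.5% of all regions. The median GC content of their windows was 52.0% and 48.3%, against 50.3% over all regions. These shares describe groups of regions that were not called.

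The sexes and the lanes were examined because both were unevenly spread over the groups. No region was called for a difference of the morphine contrast between males and females (0% of 13788; 862 at an unadjusted p under 0.05, or 6.25%). At Ogdh the difference was 40.5 ± 16.1 in females and 64.2 ± 19.8 in males, at Jdp2 35.6 ± 14.5 and 54.9 ± 17.8, at Sdk2 52.2 ± 16.4 and 58.6 ± 20.1, at 4931414P19Rik −37.8 ± 14.4 and −56.0 ± 17.7, at Fryl −44.6 ± 14.3 and −47.0 ± 17.5, and at Grm7 −41.4 ± 14.3 and −53.7 ± 17.5. Male values rest on 2 SAL-SAL libraries. Best1 stood at 62.9 ± 16.4 in females and 13.3 ± 20.1 in males, and Lpin1, named below, at 51.9 ± 16.2 and −1.75 ± 19.9. With only the 28 hypothalamus lists that name lane 7 in the fit, of which 13 were baseline lists, the differences were 44.0 at Ogdh, 41.5 at Jdp2, 58.3 at Sdk2, −43.0 at 4931414P19Rik, −46.9 at Fryl and −54.6 at Grm7, of the same sign as over all libraries. With the neuron, astrocyte and oligodendrocyte marker shares of the libraries as terms they were 51.8, 45.5, 49.1, −48.2, −45.0 and −45.5. The shares of the thalamus list and of the other brain-area lists were not terms.

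Gene lists were read against all regions, of which 50.1% had a difference above 0 and the median was 0.061. Regions were assigned to the nearest protein-coding TSS within 100 kb, which does not show that they act on that gene. None of the regions of the lists was called in full lists, and the promoter of Jdp2 was the only one called in lists of equal length.

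Of 35 regions assigned to 27 genes of glycolysis, the tricarboxylic acid cycle and gluconeogenesis, 25 (71.4%) had a difference above 0, with a median of 4.66. At an unadjusted p under 0.05, 5 were higher and 0 lower (14.3%, against 8.04% of all regions in both directions and 3.90% higher). These lay at the promoters of Ogdh, of Eno1, an enolase (25.6 ± 11.6), and of Gapdh (21.8 ± 10.6), in an intron of Pfkp, a phosphofructokinase (26.6 ± 12.1), and 17541 bp from Pck1, the gluconeogenic enzyme PEPCK (25.7 ± 7.33, adjusted p = 0.209). The Pck1 region ranked at 81.4, 88.8 and 98.4 in MOR-SAL and 33.8, 65.7 and 97.6 in SAL-SAL, and 6 of 8 SAL-SAL libraries ranked below every MOR-SAL library. The study named Pck1 on these animals, so its part of the 14.3% is not independent of that choice. The region near Slc16a1, a lactate transporter, was lowest in the list (−23.8 ± 12.2). Lipid and sterol genes had 30 of 59 regions above 0 and a median of 0.521. At an unadjusted p under 0.05, 3 were higher and 1 lower (6.78%, against 8.04% of all regions). Those higher were assigned to Lpin1, a phosphatidate phosphatase (34.0 ± 12.1), Srebf1, the master regulator of lipid synthesis (31.9 ± 12.1), and Scd2 (27.3 ± 11.5). The lower one lay near Ppara (−25.7 ± 11.7).

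Hypothalamic and hormonal genes formed 4 of the lists. An exonic region of Pomc, the precursor of melanocortins and beta-endorphin (chr12:3959400-3961068), ranked at 17.6, 86.6 and 99.97 in MOR-SAL and 14.0, 27.6 and 85.9 in SAL-SAL. This region lies 4449 bp from the nearest TSS of Pomc, and none of the 20 libraries had a peak within 1 kb of a Pomc TSS. The groups overlapped, and a peak was present in the exonic region in 10 of 12 and 5 of 8 libraries. The difference of 32.8 ± 12.3 did not pass (adjusted p = 0.429). A second region assigned to Pomc, in an intron of Efr3b, differed by 27.5 ± 12.2. These were the 2 higher of 12 neuropeptide regions at an unadjusted p under 0.05 (16.7%, against 8.04% of all regions in both directions and 3.90% higher). None was lower, the median of the list was 1.91, and the promoter of Bdnf was at −5.87 ± 11.4. Feeding and hormone receptors with insulin and leptin signalling had 19 of 32 regions above 0 (median 1.48), with Mchr1, the receptor for melanin-concentrating hormone (26.4 ± 11.6), Ptpn1 (25.7 ± 12.3) and the promoter of Thra (23.8 ± 11.1) higher and the promoter of Thrb, the other thyroid hormone receptor gene (−29.5 ± 12.2), lower. Hypothalamic transcription factors had 13 regions for 4 of 32 genes, 6 of them above 0 (median −1.60), and Arnt2 stood at 28.4 ± 11.5 and Dlx2 at −22.0 ± 12.2. The opioid list had 33 of 58 regions above 0, with a median of 3.69 in full lists and −0.047 in lists of equal length. Gnao1, the Go alpha subunit to which opioid receptors couple, had its lowest value, −21.1 ± 8.97. At an unadjusted p under 0.05, the shares in both directions were 12.5% for feeding and hormone genes and 7.69% for transcription factors. The opioid list had 5.17%, against 8.04% of all regions.

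Stress and activity genes went both ways. Heat shock and folding genes had 17 of 30 regions above 0 (median 1.48), and 4 were higher at an unadjusted p under 0.05: a pair at Bag3, a cochaperone of HSP70 (39.6 ± 12.0 for the region 24199 bp away and 30.7 ± 12.0 in an intron), 1 near Hspa1b (33.2 ± 11.5) and 1 near Hspa9 (22.5 ± 7.44). The region near Bag3 was among the strongest 10000 peaks in 9 of 12 MOR-SAL and 0 of 8 SAL-SAL libraries. Hsph1 was lower (−26.4 ± 12.0). At an unadjusted p under 0.05, both directions together made up 16.7% of the list, against 8.04% of all regions. The Bag3 regions are part of that share. The study named Bag3 on these animals, so the share is not independent of that choice. Immediate early genes, which neurons induce on activity, had 22 of 41 regions above 0 (median 0.492), with Sik1 (35.7 ± 12.2), Btg2 (28.1 ± 11.9) and Gadd45g (21.6 ± 10.8) higher and Dusp1 (−25.5 ± 10.0) and Nr4a1 (−22.4 ± 10.5) lower. Genes induced by the glucocorticoid receptor had 15 of 40 regions above 0 (median −3.64), among them Ddit4 (17.8 ± 7.22) above and Dusp1 and the Sgk1 promoter (−19.5 ± 9.08) below. AP-1 and CREB family genes had 18 of 36 above 0 (median −0.259), with the promoters of Jdp2 and of Crtc2, a CREB coactivator (23.0 ± 9.30), higher and Bach2 lowest (−22.4 ± 12.2). In the circadian list 15 of 29 were above 0 (median 0.345), with Bhlhe40 at 29.8 ± 11.5 and Arntl at −12.6 ± 9.70. At an unadjusted p under 0.05, both directions made up 12.2% of the immediate early list, which holds Gadd45g, a gene the study named. The shares were 7.5% for glucocorticoid, 5.56% for AP-1 and CREB and 3.45% for circadian genes, against 8.04% of all regions.

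Immune lists were short. All 8 regions of the interferon response, assigned to 6 of 33 genes, had a difference below 0 (median −7.22), from −28.6 to −2.53. The lowest was assigned to Ifit3 and lay in an intron of Ifit2, an interferon-induced RNA-binding protein (−28.6 ± 11.9). NF-kB and acute inflammation had 10 of 21 above 0 (median −0.965), from Zfp36 (−23.1 ± 11.9) to Map3k7 (25.7 ± 11.9). The cytokines measured in the study and their receptors had 6 regions for 4 of 32 genes, 2 of them above 0 (median −9.02), from the promoter of Il12a (−22.1 ± 11.8) to that of Il1rap (9.90 ± 12.2).

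Synaptic genes held the most regions. Of 191 regions for 45 synaptic and small GTPase genes, 92 were above 0 (median −0.475), 10 were higher and 6 lower at an unadjusted p under 0.05 (8.38% together, against 8.04% of all regions). Sdk2, the scaffold gene Shank2 (34.1 ± 10.4) and Srgap3 (30.6 ± 12.2) were the highest. Of 14 regions of Kalrn, a guanine nucleotide exchange factor of dendritic spines, 3 were lower, the first at −34.4 ± 11.8. That region stood at −24.0 ± 11.0 in lists of equal length. The median over the 14 Kalrn regions was −4.42 and the highest difference 22.7. Glutamate and GABA receptor genes had 24 of 62 above 0 (median −1.73), 0 higher and 3 lower at an unadjusted p under 0.05 (4.84%, against 8.04% in both directions and 4.14% lower over all regions), which were Gria1 (−25.1 ± 9.56), the Gabra4 promoter (−24.8 ± 10.6) and Gabbr2 (−23.4 ± 9.86). The Grm7 region lies beyond 100 kb from a TSS and is not among them. The promoter of Grm4 was the highest (19.3 ± 12.1). Chromatin and transcriptional co-regulators had 42 of 67 above 0 (median 3.52), and Kat6b was the lowest (−26.8 ± 11.9).

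The genes that the study named at baseline were chosen on these animals, so their values are no independent evidence of a direction. Of 20 such genes 9 had regions, 33 in all, of which 27 (81.8%) were above 0, with a median of 8.35. At an unadjusted p under 0.05, 7 were higher and 1 lower (24.2% against 8.04% of all regions). Sdk2, Fryl, Pck1, Bag3 and Gadd45g, given above, were among them. The region of smallest p stood at 13.8 ± 12.1 for Ldha, lactate dehydrogenase A, −21.3 ± 11.9 for Src and −4.51 ± 12.1 for Ncor1.

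**Figure D4:**
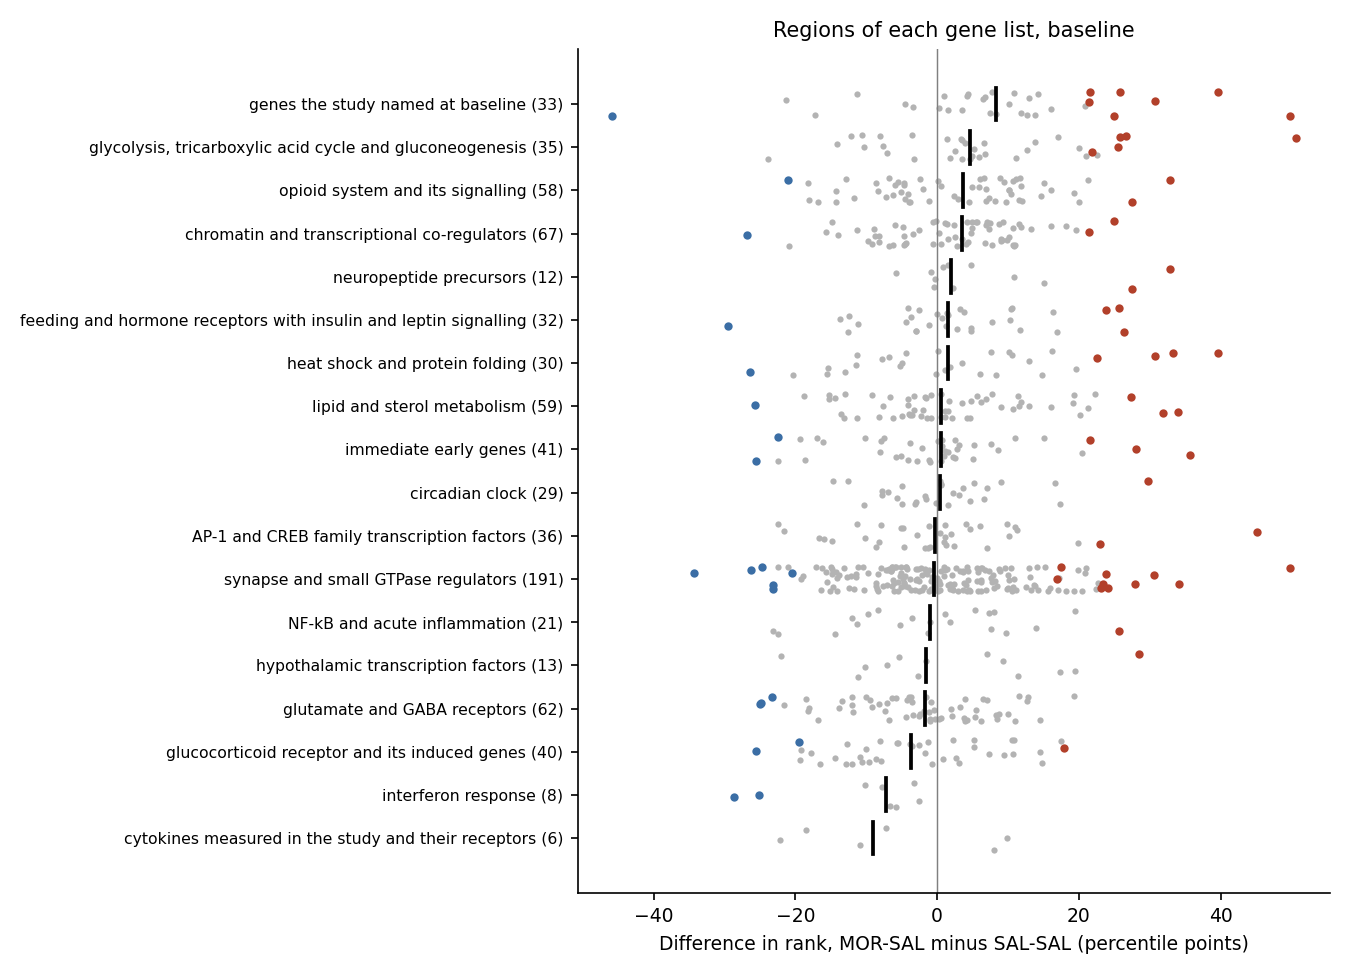
Each row is 1 of the 18 gene lists with its number of regions in parentheses, each point 1 region at its difference in rank (MOR-SAL minus SAL-SAL, percentile points), red or blue where the unadjusted limma p was under 0.05, and the black bar the median. Medians run from −9.02 for the cytokines of the study to 8.35 for the genes the study named, and every interferon region lies below 0.

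The genes given next were picked as those with the most regions on 1 side at an unadjusted p under 0.05, where all regions had 4.14% lower and 3.90% higher. Prickle2, a planar polarity protein of synapses, had 5 of 20 regions lower at an unadjusted p under 0.05, and a median of −14.1 over its 20 regions. Cacna1c, the L-type calcium channel Cav1.2, had 4 of 11 lower, the first in an intron of the neighbouring Dcp1b (−30.4 ± 11.7). Pex5l, a regulator of HCN channels, had 3 of 5 lower, at −38.4 ± 10.6, −40.7 ± 12.2 and −29.7 ± 10.5, and Anks1b (3 of 20) and Sil1 (3 of 8) were further such genes. Ptprf, a receptor tyrosine phosphatase of synapse formation, had 3 of 3 regions higher, at 34.96 ± 11.4, 26.5 ± 11.6 and 25.7 ± 12.2. Neighbouring regions of a gene are not independent of each other.

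The same regions were read in the LPS libraries of the hypothalamus and in the baseline libraries of other brain regions. In the hypothalamus of animals given lipopolysaccharide (LPS), a bacterial endotoxin, MOR-LPS was compared with SAL-LPS, where 594 of all regions were called (4.31%). Of the 10 regions named as higher at baseline, 4 were above 0 in that contrast (median −1.82, against 39.6 at baseline), and of the 10 named as lower 5 were below 0 (median −0.117, against −42.1). The smallest adjusted p was 0.0939, at Fryl, where the sign was turned (25.7 ± 9.67). At 4931414P19Rik the mean rank was 69.6 ± 19.97 in SAL-SAL and 27.2 ± 17.1, 26.9 ± 19.6 and 27.2 ± 16.3 in MOR-SAL, MOR-LPS and SAL-LPS. At Fryl the means were 68.8 in SAL-SAL, 19.9 in MOR-SAL, 42.9 in MOR-LPS and 16.7 in SAL-LPS. At Ogdh they were 22.0, 74.2, 66.3 and 59.7. SAL-SAL had the highest mean of the 4 groups at 4931414P19Rik and Fryl and the lowest at Ogdh.

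The difference between the morphine contrasts with and without LPS was called at 257 of 13788 regions (1.86%), 144 higher (1.04%) and 113 lower (0.820%) with LPS, and at 7 regions in lists of equal length (0.0508%). Among the 20 regions, those at Fryl (71.5 ± 14.4, adjusted p = 0.00278), on chromosome 11 (61.7 ± 15.3, 0.0195), at Sdk2 (−63.6 ± 16.7, 0.0268), near Slc16a9 (0.0384), at Best1 (0.0395), on chromosome 6 (0.0441), near Atp5o (0.0449) and at 4931414P19Rik (0.0495) passed in full lists. They had been named for their baseline difference, which is a part of that test, so this count is not independent of the choice.

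The baseline libraries of other brain regions came in part from the same animals: 8 of 17 in PFC, 9 of 22 in the hippocampus and 11 of 17 in the striatum carried the identifier, group and sex of a hypothalamus library, so their values are not from separate animals. In these contrasts, made on the hypothalamus regions, the higher group had medians of −4.04 in PFC, −1.72 in the hippocampus and 3.64 in the striatum, and the lower group −0.511, 3.07 and 9.07. None of the 20 regions was called there, with adjusted p of 0.614 or more. Over all regions, limma called 0 (0%) in PFC, with 455 at an unadjusted p under 0.05 (3.30%), 1 (0.00725%; 644 unadjusted, 4.67%) in the hippocampus, assigned to Mta3, a subunit of the NuRD chromatin complex, and 5 (0.0363%; 919 unadjusted, 6.67%) in the striatum, none of them in lists of equal length. The Mta3 region stood at 44.1 ± 7.96 in the hippocampus (adjusted p = 0.00293) and at 42.4 in the hypothalamus, where it was not called; it was singled out after its values were seen. The study's methods name a different library kit for PFC, whereas the labels name the same kit for all brain regions.

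**Figure D5:**
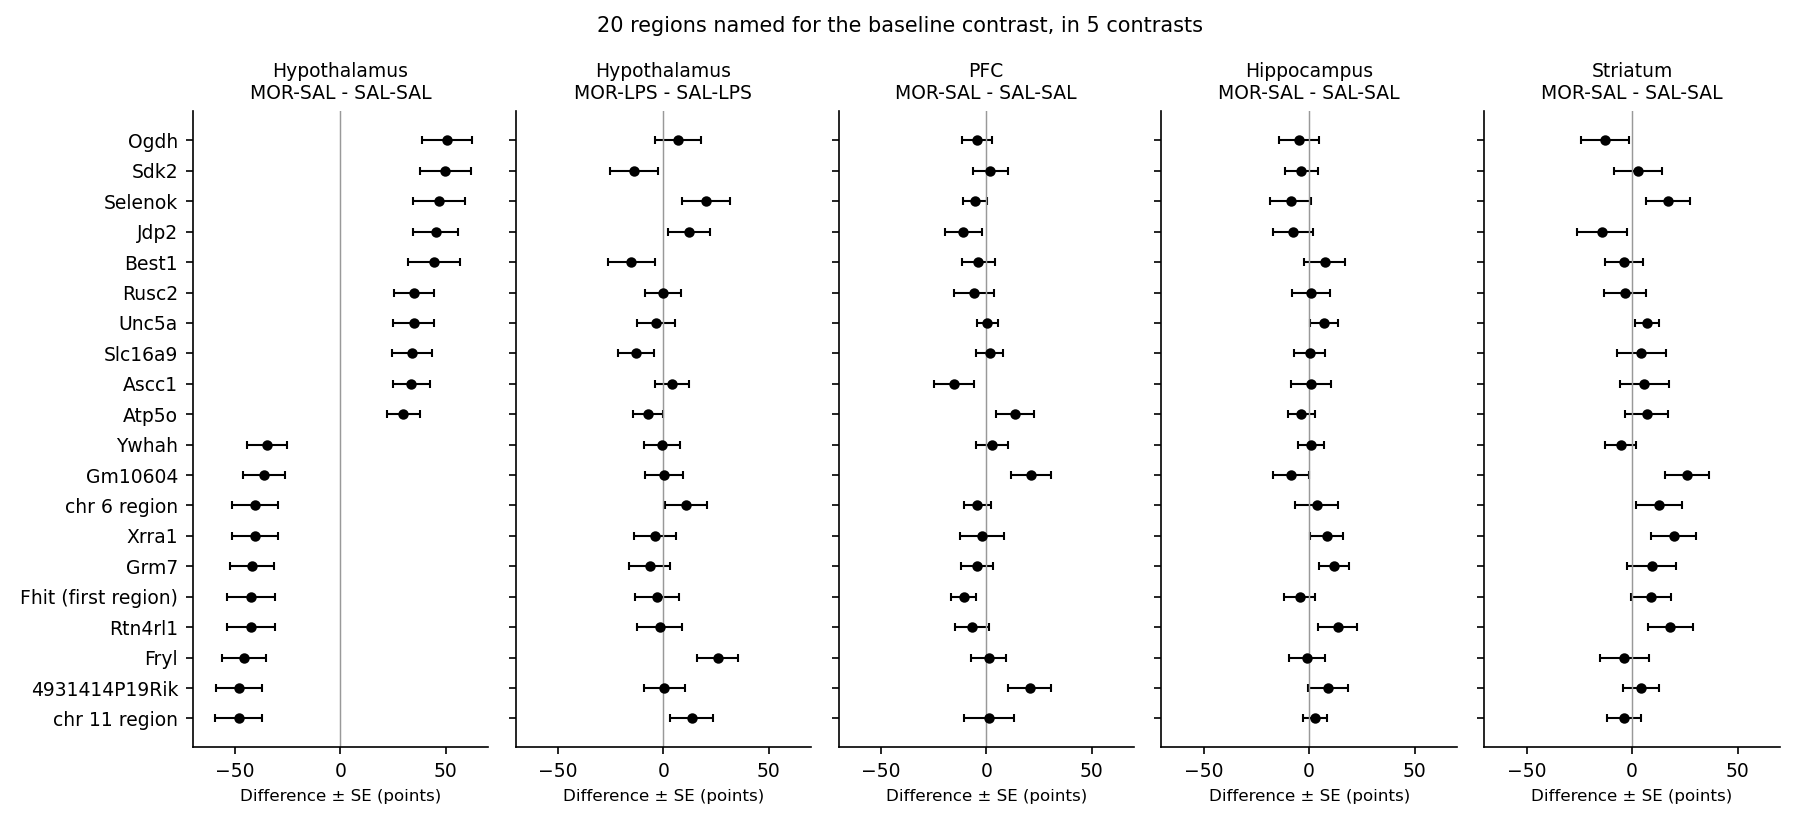
Each row is 1 of the 20 regions named by p at baseline, 10 in each direction, and each panel 1 contrast, with the difference in rank and its SE in percentile points. Differences of −48.2 to 50.6 in the first panel, which chose the regions, stand beside values from −15.2 to 25.7 in the LPS contrast of the hypothalamus and on both sides of 0 in PFC, hippocampus and striatum.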

How the data were processed

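H3K27ac MOWChIP-seq was performed by the authors on NeuN+ nuclei, 1 library per animal. Per the labels and the study's methods, reads were trimmed with Trim Galore 0.6.7 and aligned to mm10 with Bowtie2 2.4.5, duplicates were removed with SAMtools 1.15.1 and blacklisted positions were dropped. Peak calling by the authors used MACS2 2.2.7.1 on each library, with a q-value cutoff of 0.05, and they built the consensus regions with DiffBind 3.10.1, using these samples. The deposited peak lists give the fold enrichment as a ratio, the −log10 p-value, the −log10 q-value and the peak score. They hold no read counts, so sequencing depth is unknown, no interval was computed from counts, and the number of peaks stands in for depth. The authors' count model was not repeated.

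A region was given the −log10 p of its strongest peak (overlap of 1 bp or more, and 0 without a peak) and then its percentile rank within the library. Ranks were fitted with limma 3.58.1 (R 4.3.3, trended variance) over all 41 hypothalamus libraries with 4 groups and sex as terms, and p-values were adjusted by Benjamini-Hochberg over 13788 regions. Calls had an adjusted p under 0.05. The labels call samples replicates and the methods give 1 animal per library. The p-values measure the spread between animals and treat the animals as independent. The study states that perinatal treatment was assigned by dam and that litters gave more than 1 animal. It acknowledges that some of its target genes could reflect litter. No term in the fits was known to stand for litter. Lists of equal length kept 20170 peaks. Regions were assigned to the nearest protein-coding TSS within 100 kb (GENCODE M21), and promoters lay within 1 kb. The reference read ATG at 99.93% of 44973 start codons of that annotation. Each step was tested on simulated data.

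Named regions were, by rule, the 10 of smallest p in each direction, those called in lists of equal length, the region of smallest p of each gene list in each direction, that of each gene the study named, and the 6 genes with the most regions at an unadjusted p under 0.05. Other list regions given with values were those at an unadjusted p under 0.05, chosen after their values were seen. Members and lists were chosen with earlier results of these data known. Alternatives covered list length, score, overlap, filters, terms, sex, lane, identifier prefix as a block and leaving out each library. MOR-SAL and SAL-SAL shared no identifier prefix, so prefixes did not pair these groups; some occurred both with and without LPS within a perinatal treatment. Results that need items withheld for evaluation are not reported here.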

Additional observations from a re-analysis of the deposited data

Results flagged for a closer look

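At 4931414P19Rik, SAL-SAL female 9-0 ranked at 23.1, far below the other SAL-SAL libraries, and its gap to the nearest of them was 0.708 of the group's range. At Lpin1, SAL-SAL male 5-3 ranked at 87.9, far above the rest, with a gap of 0.679 of the range. The critical value for 8 samples is 0.526, 76 values were tested, and chance flags about 5% of groups.

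The morphine contrast differed with and without LPS at 257 regions of the hypothalamus by limma. Differences below are the contrast with LPS minus that without, with the adjusted p, and regions named for their baseline difference were not chosen independently of this test. In lists of equal length, where 7 regions were called, 0 of these 15 named regions passed (adjusted p from 0.0543 to 0.180), with 15 of the same sign. Positive differences were found at Fryl (71.5, adjusted p = 0.00278), the chromosome 11 region (61.7, 0.0195), Zfp36 (53.8, 0.05 after rounding), the chromosome 6 region (51.4, 0.0441), 4931414P19Rik (48.6, 0.0495), the second Fhit region (48.3, 0.0485) and Gria1 (43.6, 0.0494). Negative differences were found at Ptprf (−68.0, 0.0141), Sdk2 (−63.6, 0.0268), Sik1 (−60.8, 0.0354), Best1 (−59.5, 0.0395), Bag3 (−54.9, 0.0485), Gadd45g (−53.0, 0.0395), Slc16a9 (−47.0, 0.0384) and Atp5o (−37.0, 0.0449).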

How the results depend on the processing

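The 0 calls at baseline became 6 in lists of equal length, 2 without the sex term, 2 in males only, 4 in lane 7 only and 6 with marker shares as terms (the last 2 settings were chosen after seeing the data). The marker shares were those of neurons, astrocytes and oligodendrocytes. The 4 calls in lane 7 only were at Grm7, Tcf7l2, Vti1a and the chromosome 11 region, all lower in MOR-SAL. Tcf7l2 is on the thalamus list. Leaving out 1 library gave 0 to 4 calls: 1 without MOR-SAL 12-1 or 17-2, 2 without MOR-SAL 15-4 or SAL-SAL 9-0, 3 without MOR-SAL 13-1 and 4 without SAL-SAL 4-1. The 6 calls in lists of equal length became 0 in lane 7 only, 0 with the form of the peak names as a term, 0 in females only, 9 in males only and 9 with marker shares as terms, settings also added after seeing the data, and 0 to 9 with 1 library left out: 0 without MOR-SAL 16-3, 18-0, 13-3, 17-0, 6-1, 8-0 or 8-2 or SAL-SAL 3-2 or 5-3, 2 without MOR-SAL 15-4, and 3 without MOR-SAL 17-2 or SAL-SAL 10-1, 10-3 or 9-0. The 257 regions whose morphine contrast differed with LPS became 7 in lists of equal length and 418 with the number of peaks as a term. The 1 call in the hippocampus and the 5 in the striatum became 0 in lists of equal length. The cause of these changes was not tested.

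With the identifier prefix as a replicate block, 0 regions were called at baseline and 1131 had an unadjusted p under 0.05, and 6 were called in lists of equal length (correlation within prefixes −0.0159). Of 2130 values of 61 named regions, 2097 kept their direction and their side of the threshold, 29 passed it and 4 turned: Lpin1 (−1.75), Ldha (−0.978) and Il1rap (−3.23) in males only, and Grm4 (−0.334) in females only. Peak lists without counts limit the precision of low ranks, since regions without a peak are tied.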

Other observations

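Among the regions whose morphine contrast differed with and without LPS, the smallest p belonged to Pcdh9, Kcnb2, Shank2 and Fryl, and the 12 of smallest p also held Zbtb20, Kcnj5, Sec14l1, Prkcb, Usp29, Mgat4d, Kif26b and a region of chromosome 14. At Pcdh9, a protocadherin gene, MOR-SAL stood at −36.3 against SAL-SAL and MOR-LPS at 41.1 against SAL-LPS (difference 77.4 ± 14.6, adjusted p = 0.00187 by limma). Kcnb2, a delayed rectifier potassium channel, went from 31.6 to −50.2 (−81.8 ± 15.8, adjusted p = 0.00187), and Shank2, a scaffold of excitatory synapses, from 34.1 to −38.2 (−72.3 ± 14.2, adjusted p = 0.00203). In lists of equal length Shank2, Kcnb2, Kcnj5, a G protein-gated potassium channel, and Prkcb, a protein kinase C, were called with negative differences, as were Xpnpep1 and a region of chromosome 9, and Nfix was called with a positive one (52.9 ± 12.5, adjusted p = 0.0456).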
